A study of Rattus norvegicus with 16 samples.

Results

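Notch1, Notch2 and Notch3 (receptors), Jag1, Jag2 and Dll4 (ligands) and Hes1, Hey1 and Hey2 (target genes) were followed through RNA-seq libraries of rat knee cartilage. These 9 genes were picked by symbol from a table of 23552 genes, with earlier results of the same libraries known. Their fold changes and p-values are therefore descriptions of these libraries and no independent evidence. All 9 passed the filter on low values (at least 1 FPKM, a level scaled to gene length and library depth, in at least 4 of 16 libraries), as did 14337 genes in all. The 16 libraries fell into 4 groups of 4. The first group was osteoarthritic cartilage given a coacervate (a polymer-rich liquid phase that separates from water) together with cells and a drug. In the second, osteoarthritic cartilage had received hyaluronic acid (HA), a large sugar polymer of joint fluid, again with cells and a drug. The third was osteoarthritic cartilage with neither treatment named in its title, and the fourth was healthy cartilage. Library names call the osteoarthritic group PBS and the healthy group Sham, which the titles do not explain, so neither can be taken as untouched. All rats were 10 weeks old. The strain, the way osteoarthritis was brought about, the cells, the drug and what the coacervate was made of are not named in the labels. Both treated groups received cells and a drug, so neither group isolates its carrier. The labels do not say that the cells and the drug were the same in both. They also do not say that replicates came from separate animals, so p-values measure the spread between these libraries, which may be technical.

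Notch receptors are cut when a Jagged or Delta-like ligand on a neighbouring cell binds them, and the freed intracellular part enters the nucleus. There it joins the DNA-binding protein RBPJ and switches on genes of the Hes and Hey families, whose products are repressors of transcription. In cartilage the pathway is known for restraining early chondrocyte differentiation, and in mice its chondrocyte activity has been tied to growth plate maturation and to joint degeneration. The same genes work in blood vessels: Notch3 is typical of pericytes and smooth muscle, and Dll4, Jag1, Hey1 and Hey2 are well known in endothelium and the vessel wall.

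The upstream sequences of the target genes are shown because RBPJ acts through them. RefSeq promoter windows of the GRCr8 assembly, 300 bases from 250 before to 50 after the annotated start, were matched by symbol for 7 of the 9 genes, and not for Dll4 and Hey1. TGGGAA, the core of the RBPJ binding sequence, was searched on both strands, as was GTGGGAA, which contains it. The 250 bases before the start are printed 5′ to 3′ on the gene's own strand for Hes1 (chr11:84213046-84213295, minus strand) and Hey2 (chr1:28640850-28641099, plus strand), with each TGGGAA or its reverse complement TTCCCA in capitals.
Hes1: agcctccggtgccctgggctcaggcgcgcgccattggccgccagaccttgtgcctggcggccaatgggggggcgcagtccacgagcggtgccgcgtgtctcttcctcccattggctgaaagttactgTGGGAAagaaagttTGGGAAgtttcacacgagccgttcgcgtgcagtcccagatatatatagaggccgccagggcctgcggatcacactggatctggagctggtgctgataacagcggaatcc
Hey2: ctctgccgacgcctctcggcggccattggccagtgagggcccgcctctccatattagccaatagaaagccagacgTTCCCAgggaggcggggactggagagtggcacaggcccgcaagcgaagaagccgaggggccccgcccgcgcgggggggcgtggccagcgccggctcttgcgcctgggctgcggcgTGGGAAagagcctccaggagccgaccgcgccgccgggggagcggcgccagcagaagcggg
The Hes1 matches began at -123 and -109 on the gene's strand, and the first was part of a longer match, GTGGGAA, whose first base was at -124. Hey2 had 1 match at -175 on the opposite strand and 1 at -60, which was also part of GTGGGAA. Of 27457 promoter windows of the same length, 25.1% held TGGGAA and 6.19% held GTGGGAA. The Notch3 window had 1 TGGGAA at 43 bases after the start, and the windows of Notch1, Notch2, Jag1 and Jag2 had none. CACNAG, a sequence that HES proteins bind, matched at 4 places in the Hes1 window, at 4 in that of Notch1, at 1 in that of Notch3 and at 0 in the other 4, and 42.8% of all windows held it. Matches of letters are descriptions, and binding was not measured here.

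Total counts ran from 36988722 to 50725189 per library. Osteoarthritic replicates 2 and 3 differed from all other libraries: their scores on principal component 1, which held 32.5% of the variance, were 69.6 and 58.9, and the other 14 scored -32.3 to 12.7. Haemoglobin genes took 20.6% and 20.0% of their counts, against 9.57% to 15.6% elsewhere. The mean log2 level of ribosomal protein genes, relative to all 16 libraries, was 0.96 and 0.79 in that pair and -0.40 to 0.14 in the others, and the part of either shift in the receptor levels was not tested. The cartilage genes Col2a1 (169 to 593 FPKM) and Comp (60.6 to 215 FPKM) were high in every library, and Acan (8.14 to 38.9 FPKM) and Sox9 (0.54 to 3.43 FPKM) were lower. Osteoblast markers summed to a median of 3148 FPKM in coacervate-treated, 4160 in HA-treated, 3555 in osteoarthritic and 3327 in healthy cartilage. Chondrocyte markers had medians of 703.5, 863.1, 820.1 and 747.6 FPKM in that order. Skeletal muscle markers had 3771, 2196.5, 2348 and 3688 FPKM, and erythroid markers 3448, 3034, 3173 and 3028 FPKM. The lists hold different genes, so their sums are not shares of cells. No marker gene of cartilage or of the other cell types checked was at 0 in every library. In such bulk samples, fewer cells of a type and less RNA per cell cannot be told apart.

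Set against gene length, the receptors and Hes1 led the 9 genes. In healthy cartilage Notch2 averaged 15.3 FPKM, Hes1 8.89, Notch1 7.85, Notch3 7.33, Jag1 3.57, Hey1 2.18, Jag2 1.79, Dll4 1.15 and Hey2 0.885 FPKM. The healthy ranges of Hes1 and Notch1, of Notch1 and Notch3, of Hey1 and Jag2 and of Dll4 and Hey2 overlapped, whereas those of Notch2 and Hes1, of Notch3 and Jag1, of Jag1 and Hey1 and of Jag2 and Dll4 did not. Notch2 was first in each group, at 16.7 FPKM in coacervate-treated, 16.1 in HA-treated and 13.1 in osteoarthritic cartilage. By group means, Hes1 came after all 3 receptors outside healthy cartilage, at 6.01 FPKM in coacervate-treated, 4.37 in HA-treated and 4.61 in osteoarthritic cartilage. Single libraries departed from this order, since Hes1 was above Notch1 and Notch3 in osteoarthritic replicates 2 and 3 and in coacervate replicate 1. Hey2 was nearest to the low-value filter, with at least 1 FPKM in 12 libraries, and Jag2 and Dll4 reached it in 14.

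**Figure D1:**
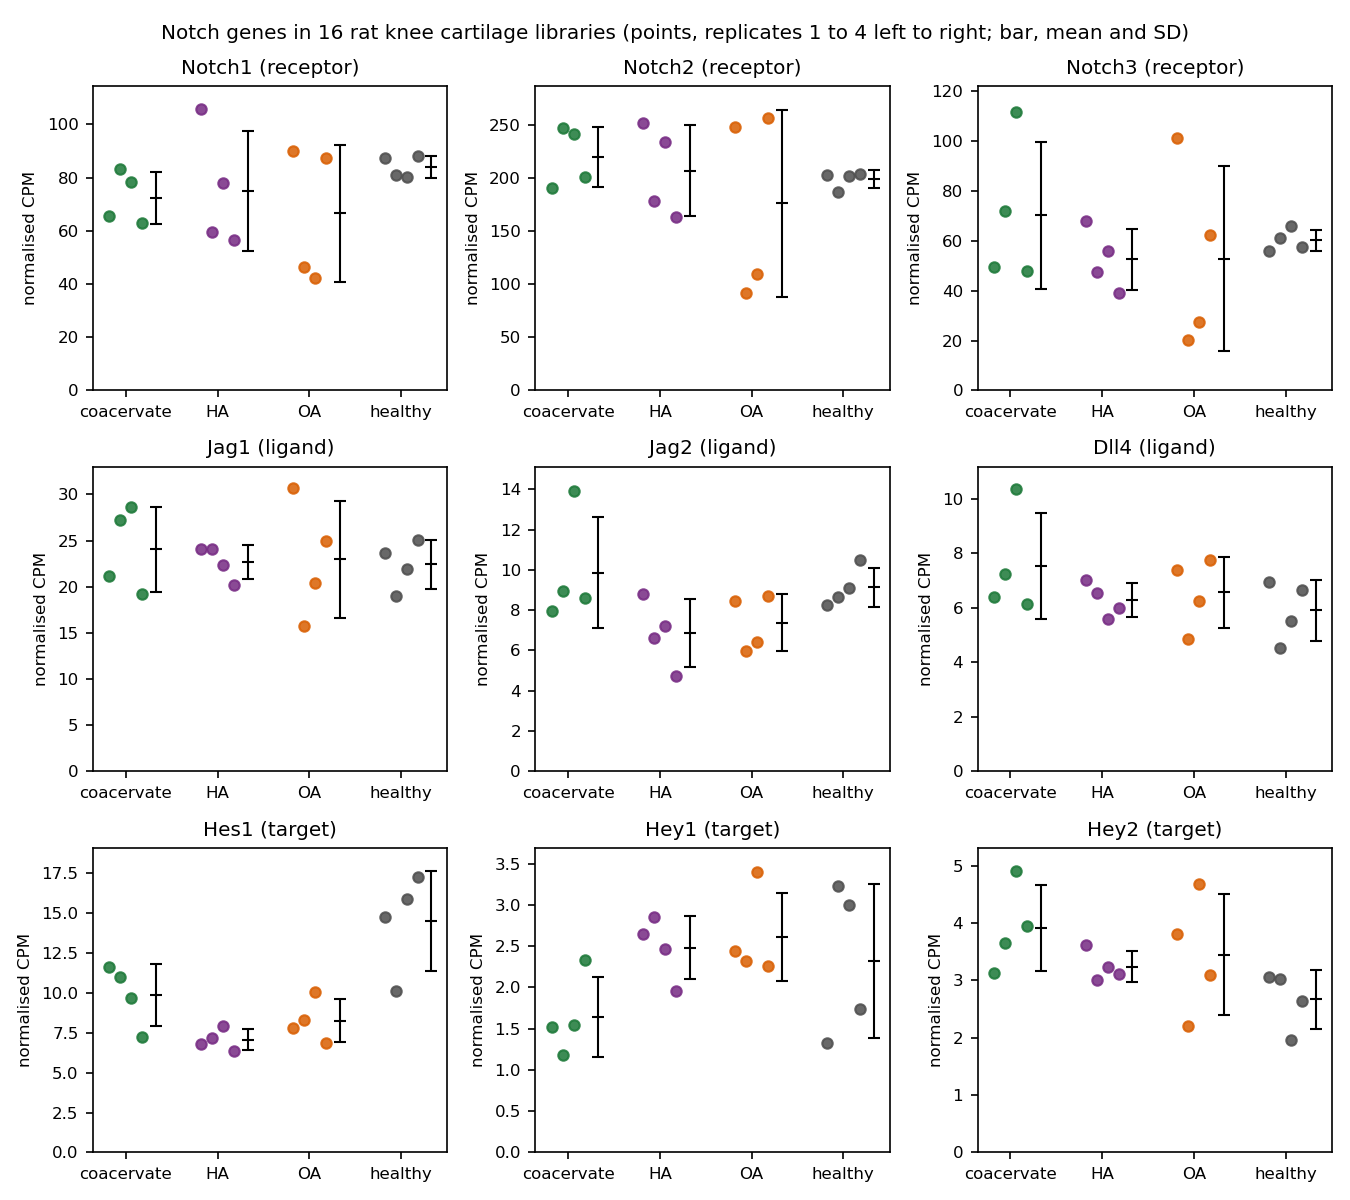
Normalised CPM (counts scaled to library size, linear axis) of the 9 Notch genes in each library, by group (coacervate-treated, HA-treated, osteoarthritic marked OA, healthy), with replicates 1 to 4 as points from left to right and a bar for mean and SD. The 4 healthy points of Hes1 lie above all HA-treated and osteoarthritic points, and the receptor points of osteoarthritic replicates 2 and 3 lie below those of replicates 1 and 4.

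The receptors were compared between libraries in normalised CPM, counts scaled to effective library size. Notch1 (ENSRNOG00000019322, rn6 chromosome 3, 3905453 to 3951025, minus strand), a receptor used in many tissues, stood at 90.2, 46.4, 42.4 and 87.3 CPM in osteoarthritic replicates 1 to 4, against 87.3, 81.1, 80.1 and 88.0 CPM in the healthy ones. Notch2 (ENSRNOG00000018835, chromosome 2, 200187179 to 200320215, plus strand), the most abundant receptor of the 3, had 248, 91.3, 109 and 256 CPM in osteoarthritic libraries, against 203, 187, 202 and 204 CPM in healthy ones. Notch3 (ENSRNOG00000004346, chromosome 7, 14138495 to 14189688, minus strand), the receptor typical of vessel walls, had 101, 20.2, 27.6 and 62.4 CPM in osteoarthritic libraries, against 56.0, 61.1, 65.8 and 57.7 CPM in healthy ones. For each receptor, osteoarthritic replicates 2 and 3 were the lowest of those 8 libraries, replicate 1 was above all 4 healthy ones, and the groups overlapped. A gene annotated as AABR07055864.2 overlaps Notch3 on the opposite strand, and the strand setting of the counting is not given, so reads of the pair may be mixed.

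None of the receptor differences passed the threshold, an adjusted p of 0.05 from edgeR's quasi-likelihood test with Benjamini-Hochberg adjustment over all genes tested. The log2 fold change of osteoarthritic over healthy cartilage was -0.34 ± 0.24 (SE, adjusted p = 0.456) for Notch1, -0.18 ± 0.27 (adjusted p = 0.744) for Notch2 and -0.19 ± 0.39 (adjusted p = 0.813) for Notch3. Without osteoarthritic replicates 2 and 3, these became 0.07, 0.34 and 0.44. The spread itself differed: the coefficient of variation in osteoarthritic libraries was 38.5% for Notch1, 49.9% for Notch2 and 70.2% for Notch3, against 4.91%, 4.11% and 7.21% in healthy libraries. This difference in spread was not tested.

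In the treated groups the receptors spread less than in osteoarthritic cartilage, a difference that was not tested. Notch1 had 65.4, 83.05, 78.4 and 62.8 CPM in coacervate-treated replicates 1 to 4 and 105.7, 59.5, 78.1 and 56.7 CPM in HA-treated replicates 1 to 4. Notch2 had 190, 247, 241 and 201 CPM in the coacervate-treated libraries and 252, 178, 234 and 164 CPM in the HA-treated ones. Notch3 had 49.6, 71.8, 111 and 47.9 CPM in the coacervate-treated libraries, with replicate 3 highest, and 67.8, 47.3, 55.9 and 39.2 CPM in the HA-treated ones. Both treated groups overlapped with osteoarthritic and with healthy cartilage for all 3 receptors. Over osteoarthritic cartilage, the log2 fold changes of Notch1, Notch2 and Notch3 were 0.12, 0.32 and 0.41 with coacervate and 0.17, 0.23 and -0.01 with HA. Without osteoarthritic replicates 2 and 3, they were -0.29, -0.19 and -0.22 with coacervate, and -0.24, -0.28 and -0.64 with HA. With only coacervate replicate 3 left out, those of coacervate over osteoarthritic cartilage were 0.08, 0.27 and 0.09.

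**Figure D2:**
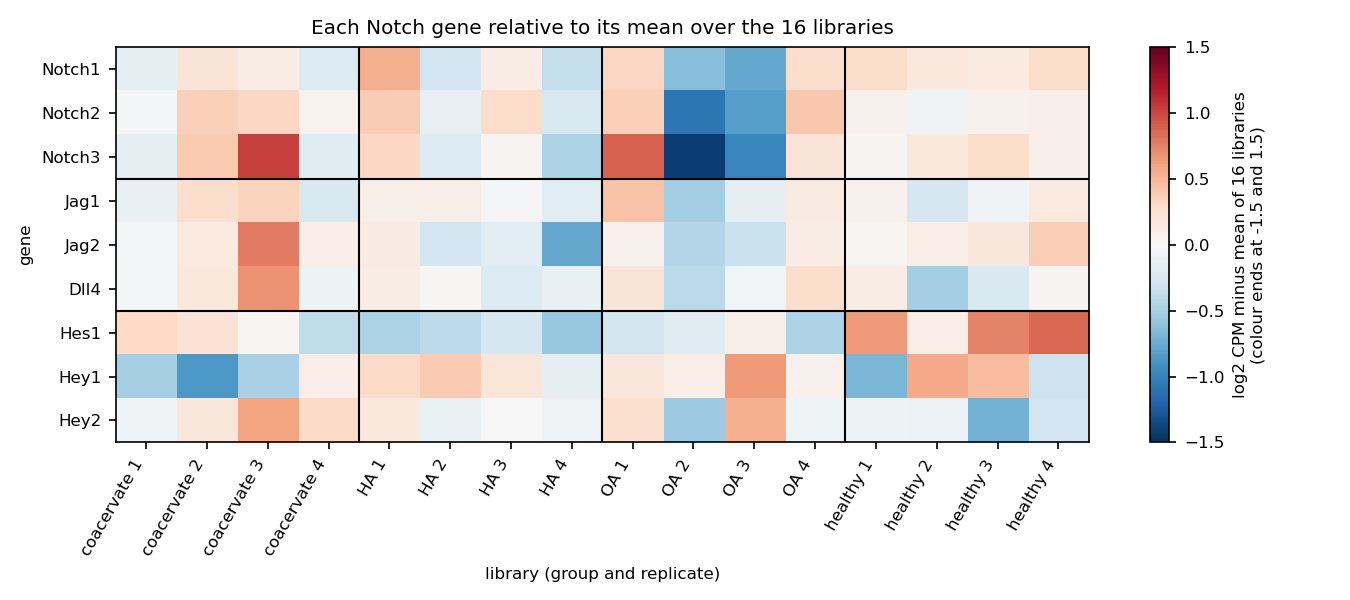
Log2 normalised CPM of each Notch gene minus its mean over the 16 libraries (colour), with genes down the page and libraries across it by group and replicate (OA, osteoarthritic). All 3 receptors are low in osteoarthritic replicates 2 and 3, while Notch3, Jag2 and Dll4 are high in coacervate replicate 3.

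By summed FPKM, markers of several cell types, vessel cells among them, moved with the receptors in the libraries that stood apart. Markers of other cell types did not. The 14 mural markers (pericytes and smooth muscle, Notch3 left out) summed to 295.2, 129.2, 172.2 and 236.0 FPKM in osteoarthritic replicates 1 to 4 and to 593.3 FPKM in coacervate replicate 3. Their sums ran from 223.1 to 593.3 FPKM in coacervate-treated, from 214.2 to 240.0 in HA-treated, from 129.2 to 295.2 in osteoarthritic and from 256.2 to 292.2 FPKM in healthy libraries. The 17 endothelial markers found, of 18 listed, summed to 132.3 to 179.4 FPKM in coacervate-treated, 133.1 to 157.0 in HA-treated, 98.8 to 173.3 in osteoarthritic and 140.9 to 166.6 FPKM in healthy libraries. The lowest of these were osteoarthritic replicates 2 and 3, at 98.8 and 114.6 FPKM, and the highest was coacervate replicate 3. Other lists moved in the same libraries, not all in the same direction. Adipocyte markers summed to 891.7 and 1215.5 FPKM in osteoarthritic replicates 2 and 3, the highest of the 16 libraries, against 539.1 and 242.7 FPKM in replicates 1 and 4. The mean log2 level of T and NK cell markers was 0.62 and 0.40 in replicates 2 and 3, against 0.11 and -0.16 in replicates 1 and 4. Chondrocyte markers summed to 442.8 and 540.0 FPKM in osteoarthritic replicates 2 and 3, against 1171 and 1100.2 FPKM in replicates 1 and 4, and osteoblast markers to 2583 and 2683 FPKM in that pair, the lowest of the 16 libraries. As mean log2 CPM relative to 16 libraries, the pair had -0.37 and -0.11 (chondrocyte), -0.50 and -0.22 (mural) and -0.29 and -0.16 (endothelial). On that scale osteoarthritic replicate 3 did not stand apart. Healthy replicate 4 had -0.35 for chondrocyte, HA replicate 2 -0.24 for mural and coacervate replicate 1 -0.16 for endothelial markers. Skeletal muscle markers summed to 9103 FPKM in coacervate replicate 3, against at most 4518 FPKM in any other library. The mean log2 level of chondrocyte markers in coacervate replicate 3, -0.80 relative to the mean of 16 libraries, was the lowest, but their sum of 654.5 FPKM was not. No gene of these lists was at 0 in every library, and the part of these cells in the receptor levels was not tested.

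**Figure D3:**
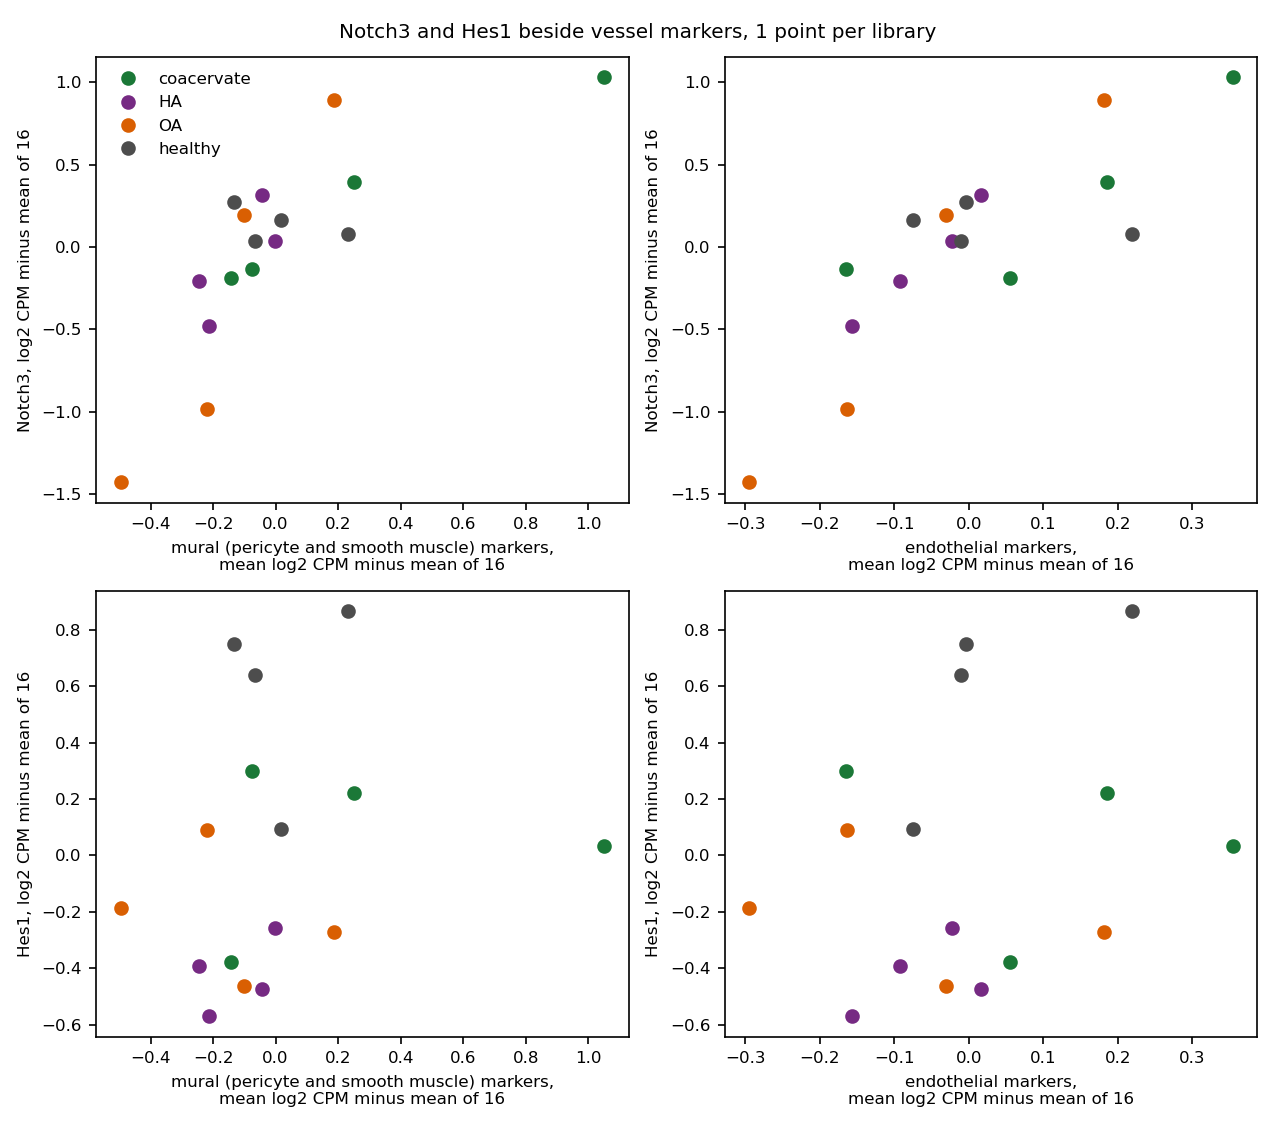
Notch3 (top) and Hes1 (bottom), as log2 normalised CPM minus the mean of 16 libraries, against the mean level of mural markers (left) and endothelial markers (right) on the same scale, with 1 point per library coloured by group (OA, osteoarthritic). Notch3 is lowest in osteoarthritic replicates 2 and 3, where the mural level is -0.50 and -0.22, against -0.24 in HA replicate 2. On this axis osteoarthritic replicate 3 is therefore not set apart in mural markers. Notch3 and the mural level are both highest in coacervate replicate 3. The HA-treated Hes1 points lie below the healthy ones in both lower panels.

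Among the ligands, Jag1 varied least between groups. Jag1 (ENSRNOG00000007443, chromosome 3, 130079361 to 130114770, minus strand), a membrane-bound Jagged ligand, averaged 24.1 ± 4.61 CPM in coacervate-treated, 22.7 ± 1.86 in HA-treated, 23.0 ± 6.36 in osteoarthritic and 22.4 ± 2.62 CPM in healthy cartilage (SD, n = 4 each). Its 6 log2 fold changes lay between -0.02 and 0.10. On the log2(FPKM + 1) scale that of osteoarthritic over healthy was -0.09 rather than 0.03.

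Jag2 (ENSRNOG00000013927, chromosome 6, 137711155 to 137733026, minus strand), the second Jagged ligand, had 7.96, 8.95, 13.9 and 8.63 CPM in coacervate-treated replicates 1 to 4. It had 8.82, 6.64, 7.24 and 4.73 CPM in HA-treated, 8.47, 5.96, 6.40 and 8.71 CPM in osteoarthritic and 8.27, 8.66, 9.11 and 10.5 CPM in healthy replicates. Coacervate replicate 3 was the highest of all 16 libraries and HA replicate 4 the lowest, and all groups overlapped. The log2 fold change of coacervate over HA was 0.52 ± 0.21 (adjusted p = 0.381). It was 0.42 ± 0.21 over osteoarthritic cartilage for coacervate (adjusted p = 0.258) and -0.41 ± 0.21 over healthy cartilage for HA (adjusted p = 0.66), and none passed. Without coacervate replicate 3, the log2 fold change of coacervate was 0.31 over HA, 0.20 over osteoarthritic and -0.10 over healthy cartilage, the last against 0.11 with it. A gene annotated as AABR07065617.1 overlaps Jag2 on the same strand, and how reads were divided between them is not given.

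Dll4 (ENSRNOG00000014011, chromosome 3, 111135021 to 111145986, plus strand), a Delta-like ligand best known from sprouting vessels, had 6.39, 7.23, 10.3 and 6.14 CPM in coacervate-treated libraries. In the other groups it had 7.00, 6.54, 5.60 and 5.98 CPM (HA-treated), 7.38, 4.87, 6.25 and 7.77 CPM (osteoarthritic) and 6.96, 4.52, 5.53 and 6.66 CPM (healthy). As with Jag2, coacervate replicate 3 was the highest library, and all groups overlapped. The log2 fold change of coacervate over healthy cartilage was 0.35 ± 0.20 (adjusted p = 1), the largest of the 6 for Dll4. It was 0.16 without coacervate replicate 3.

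Hes1 separated the groups most clearly. Hes1 (ENSRNOG00000001720, chromosome 11, 74312806 to 74315248, minus strand) encodes a repressor that is the best known direct target of Notch and that also represses its own gene. It had 11.6, 11.02, 9.67 and 7.25 CPM in coacervate-treated replicates 1 to 4 and 6.78, 7.18, 7.90 and 6.34 CPM in HA-treated ones. Osteoarthritic replicates had 7.82, 8.30, 10.06 and 6.83 CPM, against 14.7, 10.09, 15.9 and 17.3 CPM in healthy replicates. All HA-treated and all osteoarthritic values lay below all healthy ones, though osteoarthritic replicate 3 and healthy replicate 2 were nearly level. In FPKM the gap was wider, since the highest osteoarthritic library had 5.14 and the lowest healthy library 6.45 FPKM. FPKM was shifted for genes in general, however. The median log2 fold change of all genes in osteoarthritic over healthy cartilage was -0.11 on log2(FPKM + 1), against 0.01 with edgeR. Coacervate-treated replicates 3 and 4 were below the healthy range and replicates 1 and 2 inside it. The means were 9.89 ± 1.94 CPM in coacervate-treated, 7.05 ± 0.661 in HA-treated, 8.25 ± 1.35 in osteoarthritic and 14.5 ± 3.11 CPM in healthy cartilage (SD, n = 4 each), from 295 to 806 counts per library.

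In HA-treated cartilage Hes1 fell by 1.04 ± 0.19 on the log2 scale relative to healthy cartilage (SE, adjusted p = 0.0448), the one difference among the 9 genes and 6 comparisons that passed. Of 14337 genes, 2 (0.0139%) fell in this comparison and 23 (0.16%) changed, while 9.83% had groups that did not overlap, 4.76% with HA-treated values lower. The call rested close to the threshold: the adjusted p was 0.142, 0.0612, 0.167 and 0.154 without healthy replicates 1 to 4 in turn. It was 0.120, 0.170, 0.127 and 0.0653 without HA replicates 1 to 4, and 0.0557 and 0.0721 without coacervate replicates 1 and 2. With the replicate block it was 0.115, and without the filter on low values 0.0641. In all 25 alternative settings the log2 fold change stayed between -1.18 and -0.86, and the adjusted p ran from 5.13e-05 (DESeq2) to 0.170. Skeletal muscle markers moved alongside, with all 10 tested negative and sums of 2006 to 2501 FPKM in HA-treated against 2856 to 4193 FPKM in healthy libraries. Fibroblast markers were positive in 11 of 11, with sums of 1124 to 1600 against 570.5 to 878.8 FPKM. Adipocyte markers were negative in 10 of 10, with sums of 345.7 to 527.2 FPKM in HA-treated and 489.3 to 601.8 FPKM in healthy libraries. Mural markers were negative in 10 of 14 and endothelial ones in 14 of 17. None of these lists' genes was at 0 in every library, and their part in the Hes1 level was not tested.

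In osteoarthritic over healthy cartilage the log2 fold change of Hes1 was -0.81 ± 0.19 (adjusted p = 0.0708), which did not pass. The background was 72 genes called (0.502%), 16 of them lower (0.112%), and 6.33% of genes without overlap between the groups, 3.19% with osteoarthritic values lower. DESeq2 gave an adjusted p of 0.0034, limma gave 0.0482 on log2(FPKM + 1) and 0.0464 on log2(FPKM + 0.1), and edgeR without osteoarthritic replicate 1 gave 0.0428. The FPKM scales carried a downward shift of genes in general, with all-gene medians of -0.11 and -0.13. Over all 25 alternatives the log2 fold change of Hes1 ran from -0.98 to -0.71 and its adjusted p from 0.0034 to 0.233. Leaving out osteoarthritic replicates 2 and 3, in which the receptors were low, gave -0.98 (adjusted p = 0.0520). Coacervate-treated cartilage lay between, with log2 fold changes of 0.26 ± 0.18 over osteoarthritic (adjusted p = 0.399), 0.49 ± 0.19 over HA-treated (adjusted p = 0.339) and -0.55 ± 0.18 over healthy cartilage (adjusted p = 1). These comparisons share libraries, so they do not back each other up.

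Hey1 (ENSRNOG00000011593, chromosome 2, 95320283 to 95322696, plus strand), a related repressor, was counted 59 to 169 times per library. It had 1.52, 1.18, 1.54 and 2.33 CPM in coacervate-treated and 2.64, 2.85, 2.46 and 1.96 CPM in HA-treated libraries. Osteoarthritic libraries had 2.44, 2.32, 3.40 and 2.26 CPM, against 1.32, 3.22, 2.99 and 1.73 CPM in healthy ones. The first 3 coacervate-treated values were below all 4 osteoarthritic and all 4 HA-treated ones, but replicate 4 overlapped with both, and the healthy libraries spanned almost the whole range. Log2 fold changes of coacervate were -0.67 ± 0.29 over osteoarthritic (adjusted p = 0.204), -0.59 ± 0.29 over HA-treated (adjusted p = 0.504) and -0.50 ± 0.29 over healthy cartilage (adjusted p = 1).

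Hey2 (ENSRNOG00000013364, chromosome 1, 29191192 to 29201531, plus strand), known for its part in heart and artery development, was counted 76 to 233 times per library. It had 3.13, 3.65, 4.91 and 3.95 CPM in coacervate-treated libraries, against 3.06, 3.03, 1.96 and 2.63 CPM in healthy ones, and these groups did not overlap. HA-treated libraries had 3.61, 3.01, 3.23 and 3.12 CPM and osteoarthritic ones 3.82, 2.1996, 4.68 and 3.09 CPM, which overlapped with both. Coacervate replicate 3 was the highest of all 16 libraries, and coacervate replicate 1 was nearly level with healthy replicates 1 and 2. The log2 fold change of coacervate over healthy was 0.55 ± 0.23 (adjusted p = 1). That of osteoarthritic over healthy was 0.37 ± 0.23 (adjusted p = 0.396). Coacervate over osteoarthritic cartilage gave 0.18, and 0.05 without coacervate replicate 3. In coacervate over healthy cartilage 3.66% of all genes did not overlap, 1.75% with coacervate-treated values higher, and edgeR called 0 of the 14337 (0%), DESeq2 18, with 552 at an unadjusted p under 0.05.

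**Figure D4:**
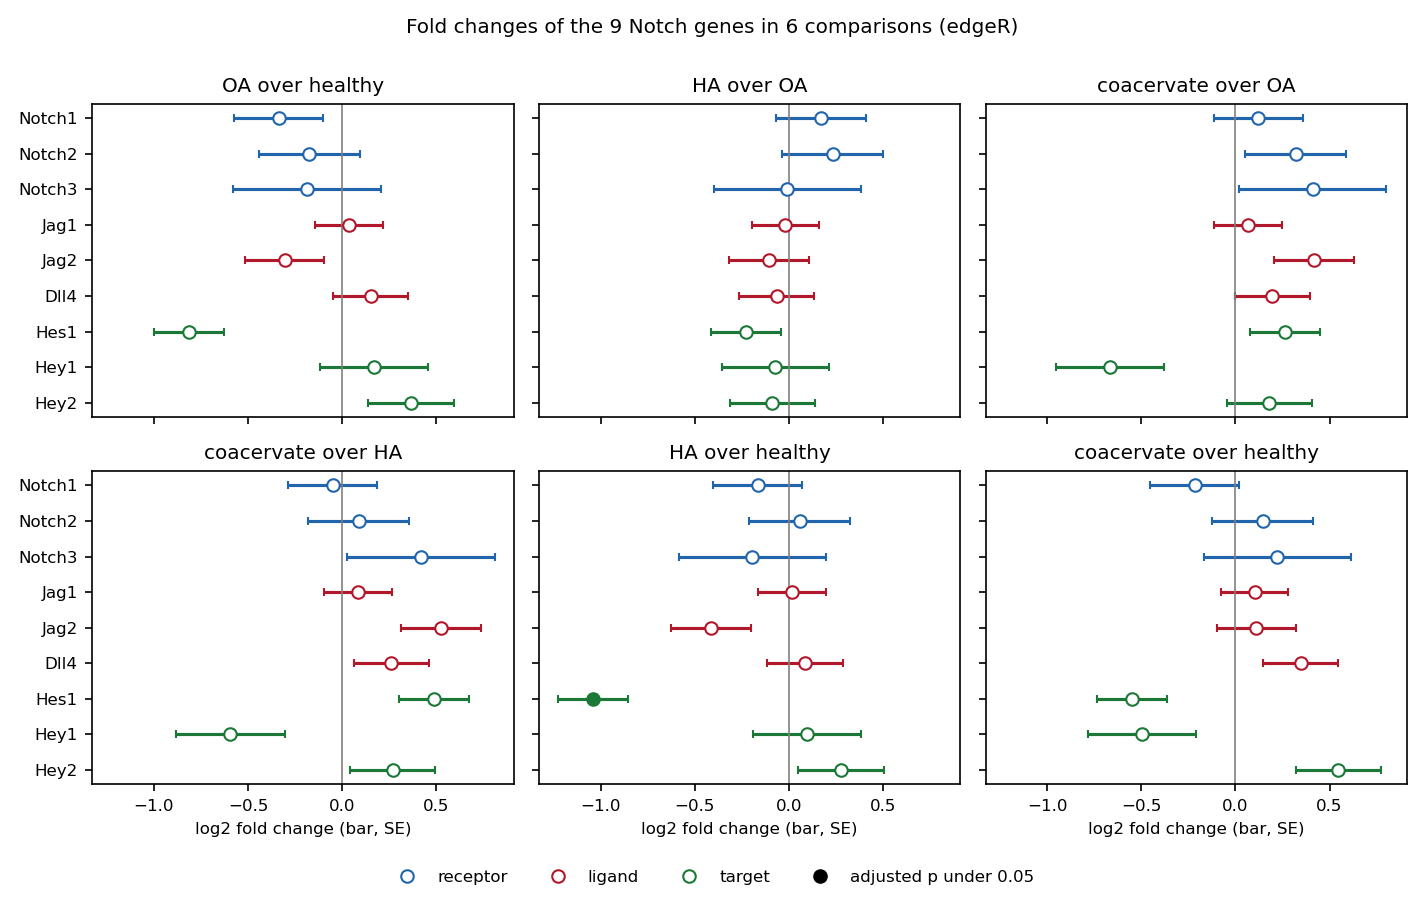
Log2 fold changes of the 9 Notch genes in 6 comparisons (points; bars, SE; OA, osteoarthritic), receptors in blue, ligands in red and targets in green, with a filled point for an adjusted p under 0.05. The single filled point is Hes1 in HA-treated over healthy cartilage, at -1.04, and Hes1 in osteoarthritic over healthy cartilage lies at -0.81.

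Counted over the 9 genes, few differences stood out from the background. In osteoarthritic over healthy cartilage edgeR called 0 of 9 (1 at an unadjusted p under 0.05, Hes1, which DESeq2 and limma called), where 2548 of 14337 genes had an unadjusted p under 0.05 and DESeq2 called 418. Of the 9, 4 log2 fold changes were positive and 5 negative with a median of -0.18, beside 0.01 over all genes. In HA-treated over osteoarthritic cartilage edgeR, DESeq2 and limma each called 0 of 9, none had an unadjusted p under 0.05, and the median was -0.06 with 2 positive and 7 negative. That comparison had 0 calls (0%) over all genes, with 909 at an unadjusted p under 0.05 and 8 calls by DESeq2, and 1.9% of genes did not overlap. In coacervate-treated over osteoarthritic cartilage edgeR, DESeq2 and limma called 0 of 9 (1 at an unadjusted p under 0.05, Hey1), where edgeR called 21 genes (0.146%) and DESeq2 797, with 3131 of 14337 at an unadjusted p under 0.05, and 5.6% did not overlap. The median there was 0.20 with 8 positive and 1 negative. Without osteoarthritic replicates 2 and 3, Notch1, Notch2, Notch3, Jag1 and Dll4 turned negative in it.

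Between the treatments the same tools called 0 of 9, with 2 at an unadjusted p under 0.05 (Jag2 and Hes1), and 7 log2 fold changes of coacervate over HA were positive and 2 negative, with a median of 0.26. Over all genes edgeR called 0 (0%) in it, with 1485 at an unadjusted p under 0.05 and 325 calls by DESeq2, and 9.71% of genes did not overlap. None of the 9 was without overlap there. In HA-treated over healthy cartilage 1 of 9 was called, where 1183 of all genes had an unadjusted p under 0.05 and DESeq2 called 159. Of the 9, 5 were positive and 4 negative, and the median was 0.02. In coacervate-treated over healthy cartilage 0 of 9 were called by edgeR, DESeq2 or limma, with 2 at an unadjusted p under 0.05 (Hes1 and Hey2), 6 positive, 3 negative and a median of 0.11.

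The rest of the pathway was read from a list of 74 further genes, of which 70 were in the table and 62 were tested. The 8 under the filter were Dll3, Dlk2, Dner, Hes2, Hes3, Hes7, Rbpjl and Dtx1, and Hes2, just outside it, reached 1.11 FPKM in its highest library. One gene passed in any of the 6 comparisons. Mfap5, a microfibril protein that binds Jagged ligands and also a fibroblast marker, rose by 1.06 ± 0.20 on the log2 scale in osteoarthritic over healthy cartilage (adjusted p = 0.029), with 22.2 ± 3.11 CPM in osteoarthritic and 10.7 ± 1.34 CPM in healthy libraries (SD, n = 4 each). The call was lost, with an adjusted p of 0.0586, 0.0732, 0.102 and 0.0886, without healthy replicates 1 to 4 in turn, and of 0.0834 and 0.0543 without osteoarthritic replicates 3 and 4. Limma on log2(FPKM + 1) and log2(FPKM + 0.1) lost it too (0.0730 and 0.0633). So did edgeR with only the 2 groups (0.0692), with the replicate block (0.0692) and without osteoarthritic replicates 2 and 3 (0.0501). The range over 25 alternatives was 9.33e-05 to 0.102. Its relative Mfap2 had 8.66 ± 1.96 against 4.85 ± 1.36 CPM (log2 fold change 0.84 ± 0.25, adjusted p = 0.168). Fibroblast markers were positive in 10 of 11 in that comparison, with sums of 774.7 to 1679 FPKM in osteoarthritic and 570.5 to 878.8 FPKM in healthy libraries. Mfap5 is itself in that list and was not left out of the count or the sums, and the part of fibroblasts in its level was not tested. Of the 62 genes, 31 were positive and 31 negative in osteoarthritic over healthy cartilage, with a median of -0.01. In that comparison 9 of the 62 had an unadjusted p under 0.05, beside 17.8% of all genes tested. EdgeR called 0.502% of all genes there.

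Mfap5 in HA-treated over healthy cartilage gave 0.96 ± 0.20 on the log2 scale (adjusted p = 0.074), and in coacervate-treated over healthy cartilage 0.85 ± 0.20 (adjusted p = 0.696). The coacervate value was 0.60 without coacervate replicate 3. Ccn3, a matricellular protein that binds Notch1, had 118 ± 74.6 CPM in coacervate-treated and 56.7 ± 7.26 CPM in healthy libraries (1.06 ± 0.31, adjusted p = 1), and Mfap2 gave 0.74 ± 0.25 (adjusted p = 1) there. HA over healthy cartilage had 36 positive and 26 negative values with a median of 0.03, and coacervate over healthy cartilage 38 and 24 with a median of 0.04. Next by p in HA over healthy cartilage were the co-repressor Tle1 (-0.72 ± 0.26, adjusted p = 0.436) and the Deltex family gene Dtx4 (0.51 ± 0.21, adjusted p = 0.496).

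Tle4, a co-repressor that HES proteins recruit, had 62.9 ± 5.77 CPM in coacervate-treated, 56.7 ± 6.22 in HA-treated, 47.1 ± 5.47 in osteoarthritic and 63.0 ± 2.29 CPM in healthy cartilage (SD, n = 4 each). Osteoarthritic values did not overlap with the healthy ones (log2 fold change -0.42 ± 0.10, adjusted p = 0.0906), nor coacervate-treated values with the osteoarthritic ones (0.42 ± 0.10, adjusted p = 0.0975). Of all genes tested, 6.33% and 5.6% did not overlap in these comparisons. For HA over osteoarthritic cartilage the log2 fold change of Tle4 was 0.27 ± 0.10 (adjusted p = 0.745). Rfng, a fringe enzyme that adds sugars to Notch, had 13.6 ± 1.51 CPM in coacervate-treated, 15.5 ± 0.449 in HA-treated and 21.4 ± 6.71 CPM in osteoarthritic cartilage. Its log2 fold change over osteoarthritic cartilage was -0.66 ± 0.17 with coacervate (adjusted p = 0.103) and -0.46 ± 0.17 with HA (adjusted p = 0.745). Crebbp, a co-activator, gave 0.66 ± 0.19 for coacervate over osteoarthritic cartilage (adjusted p = 0.119). Positive values numbered 35 and negative ones 27 for coacervate over osteoarthritic, and 38 and 24 for HA over osteoarthritic cartilage, with a median of 0.05 in both, while coacervate over HA had 34 and 28 with a median of 0.03. In coacervate over HA the smallest p-values belonged to Tle1 (0.67 ± 0.26, adjusted p = 0.350), Neurl1, a ligand-handling ubiquitin ligase (0.53 ± 0.21, adjusted p = 0.362), and Lfng (-0.31 ± 0.13, adjusted p = 0.411). EdgeR called 0 of the 62 in HA over osteoarthritic (4 at an unadjusted p under 0.05, 0 by DESeq2), in coacervate over osteoarthritic (10, and 3 by DESeq2), in coacervate over HA (6, and 0), in HA over healthy (7, and 1) and in coacervate over healthy cartilage (3, and 1). Over all 14337 genes the share at an unadjusted p under 0.05 was 6.34%, 21.8%, 10.4%, 8.25% and 3.85% in the same order. DESeq2 called 8, 797, 325, 159 and 18 of them.

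The nearest relatives of the 9 genes did not pass either. Heyl, the third Hey family target, had 10.5 ± 3.45 CPM in coacervate-treated, 8.55 ± 0.322 in HA-treated, 7.64 ± 2.34 in osteoarthritic and 12.7 ± 4.08 CPM in healthy cartilage, and its log2 fold changes over healthy cartilage were -0.28 ± 0.26, -0.58 ± 0.26 and -0.74 ± 0.26 in that order of groups (adjusted p = 1, 0.581 and 0.207). The HA-treated values did not overlap with the healthy ones, which was so for 9.83% of all genes tested. Nrarp, a target that feeds back on the receptor, averaged 8.38 CPM in coacervate-treated, 8.36 in HA-treated, 8.12 in osteoarthritic and 8.87 CPM in healthy cartilage. Rbpj, the DNA-binding partner, averaged 107, 118, 111 and 95.7 CPM in the same groups. Its osteoarthritic replicates 1 to 4 had 134.7, 75.1, 85.8 and 147.4 CPM, against 91.6 to 100.8 CPM in healthy libraries.

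The receptor Notch4, which is typical of endothelium, averaged 13.6 CPM in coacervate-treated, 11.8 in HA-treated, 13.7 in osteoarthritic and 13.5 CPM in healthy cartilage. The ligand Dll1 averaged 5.43, 3.58, 3.56 and 4.94 CPM in that order, and the non-canonical ligand Dlk1 5.52, 7.34, 4.29 and 5.74 CPM. Lfng and Mfng, the other fringe enzymes, averaged 28.6 and 19.6 CPM in coacervate-treated, 35.6 and 24.1 in HA-treated, 34.0 and 22.7 in osteoarthritic and 32.9 and 23.4 CPM in healthy cartilage. Mfng values of coacervate-treated cartilage did not overlap with those of HA-treated or healthy cartilage, with log2 fold changes of -0.30 ± 0.14 (adjusted p = 0.447) and -0.26 ± 0.14 (adjusted p = 1). Of all genes tested, 9.71% and 3.66% did not overlap in these comparisons.

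Across libraries the receptors varied together and with Jag1 and Jag2, and Hes1 and Hey1 had low or negative correlations with the receptors. Over the 16 libraries, which share scaling and include the pair that stood apart, Pearson's r of log2 CPM was 0.88 for Notch1 with Notch2, 0.90 for Notch2 with Notch3 and 0.82 for Notch1 with Notch3. Without osteoarthritic replicates 2 and 3 (14 libraries) these were 0.75, 0.73 and 0.62. Jag1 with Dll4 gave 0.81 over 16 and 0.78 over 14 libraries. With Notch1, Notch2 and Notch3, Jag1 gave 0.65, 0.76 and 0.84 over 16 and 0.50, 0.68 and 0.77 over 14. Jag2 gave 0.65, 0.62 and 0.76 with them over 16 and 0.56, 0.57 and 0.75 over 14. Hey2 gave -0.02, 0.23 and 0.31 with the 3 receptors over 16 libraries, and 0.41, 0.24 and 0.59 with Jag1, Jag2 and Dll4. For Hes1 with Notch1, Notch2 and Notch3 r was 0.19, -0.0047 and 0.12 over 16 libraries, and for Hey1 it was negative with each of the other 8 genes, from -0.50 to -0.12. With group means subtracted, r of Hes1 with the 3 receptors was -0.15, -0.18 and -0.14, and that of Hey1 was near 0 with Jag2 (0.03) and Hey2 (0.08). These are descriptions without a test.

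Among all tested genes, the 3 most like each of the 9 over the 16 libraries were named by Pearson's r. For Notch1 they were Zfp516 (0.95), Pxn (0.94) and Tnrc18 (0.94), for Notch2 Rreb1 (0.99), Sec31a (0.99) and Trrap (0.98), and for Notch3 Ece1 (0.98), Trak1 (0.98) and Bcl9l (0.96). For Jag1 they were Epha2, Ctnna1 and Mcc (0.92, 0.92 and 0.91), for Jag2 Crat, Dysf and Gpat4 (0.91, 0.90 and 0.89), and for Dll4 Adamtsl4, P3h2 and Amotl2 (0.91, 0.90 and 0.89). Hes1 was most like Id4, Arl4d and Gadd45g (0.85, 0.82 and 0.82), Hey1 like Stk25, Slc35e3 and Bambi (0.81, 0.81 and 0.80), and Hey2 like Dact3, Kcnk13 and SNORD25 (0.85, 0.81 and 0.78). With group means subtracted, Zfp516 stayed among the 3 for Notch1, Rreb1 and Trrap for Notch2, Ece1 and Trak1 for Notch3, Epha2 for Jag1, Adamtsl4 and Amotl2 for Dll4 and Kcnk13 for Hey2. The others that entered were Flna and Myh9 for Notch1, Macf1 for Notch2, Arhgap31 for Notch3, Csf1 and Six4 for Jag1, Slc1a4, Calhm2 and Prickle3 for Jag2, and Mllt11 for Dll4. For the targets they were Eef1akmt4, SNORD16 and Tigd5 (Hes1), Moap1, Mthfsd and Coa7 (Hey1), and Egln1 and Ca14 (Hey2), so for Hes1, Hey1 and Jag2 no gene was on both lists.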

How the data were processed

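RNA of 16 rat knee cartilage libraries was selected with oligo(dT) beads and its second strand marked with dUTP, per the labels' protocols. Build rn6 and the tools HISAT2 2.2.1, StringTie 2.1.6, cutadapt 1.9, edgeR and DESeq2 are listed, with no role, in the submitters' processing notes, and the counter, annotation version and strand setting are not given in the sources used here. The deposited table holds a whole-number count per gene and library, not normalised by the authors, per the file headers and the differing totals. It also holds FPKM values, which the authors scaled to gene length and depth. Among low counts, 6480 values of 2 and 4576 of 3 were found, so even numbers were commoner than odd ones.

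The 9 genes, the pathway list and the marker lists were chosen with earlier results of these data known. Genes with at least 1 FPKM in at least 4 of 16 libraries were tested (14337 of 23552) with edgeR 4.0.16 (quasi-likelihood, TMM scaling, 1 fit of 4 group means, no block), with Benjamini-Hochberg adjustment over all of them and a threshold of 0.05. Levels are normalised CPM between libraries and FPKM between genes, and log2 levels used a prior count of 2. Alternatives were other scaling and filters, DESeq2 1.42.0, limma 3.58.1 on log2 FPKM with pseudocounts of 1 and 0.1, fits of 2 groups, a replicate block, osteoarthritic libraries 2 and 3 left out, and each library left out in turn. R 4.3.3, python 3.11.15 and matplotlib 3.10.9 were used, and the procedure was tested on simulated counts. Named were the 9 genes, the pathway genes past the threshold, a fixed 8 of them, the 3 with the smallest p per comparison and the 3 genes most like each of the 9.

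Depth was 36988722 to 50725189 counts per library. Fragments were amplified and carried no molecular identifiers, so low genes carry counting error beyond what their number gives. The least different replicate pair had a chi-square of 35.1 per degree of freedom, so no pair agreed within sampling noise. Promoter sequences are RefSeq's for GRCr8, and gene coordinates are those of the deposited table for rn6.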

Additional observations from a re-analysis of the deposited data

Results flagged for a closer look

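Libraries far from the rest of their group were looked for with Dixon's test at the 95% level in the 9 genes and a further 9 of the pathway (Notch4, Dll1, Rbpj, Heyl, Nrarp, Lfng, Mfng, Dlk1 and Mfap5), by group. Chance gives about 1 such value in 20 groups, and 5 of 72 were found. Jag2 in coacervate replicate 3 had 13.9 CPM, against 7.96 to 8.95 CPM in the other 3 libraries. Hey1 in osteoarthritic replicate 3 had 3.40 CPM, against 2.26 to 2.44 CPM. Notch2 in healthy replicate 2 had 187 CPM, against 202 to 204 CPM, a small distance in a tight group. Heyl in healthy replicate 4 had 18.8 CPM, against 10.4 to 11.2 CPM, and Dll1 in the same library had 7.82 CPM, against 3.74 to 4.36 CPM.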

How the results depend on the processing

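The 6 log2 fold changes of each of the 9 genes were recomputed in 25 alternatives. Of 1350 values, 1269 kept direction and side of the threshold, 65 reversed, 12 lost and 4 gained the call. All 12 losses among its 25 alternatives were of Hes1 in HA over healthy cartilage, the only difference called in the main fit. The remaining differences had no call to lose, and the 4 gains were of Hes1 in osteoarthritic over healthy cartilage. Hes1 over healthy cartilage kept its sign throughout.
Without osteoarthritic replicates 2 and 3, osteoarthritic over healthy gave 0.074 (Notch1), 0.34 (Notch2) and 0.44 (Notch3), HA over osteoarthritic -0.24 (Notch1), -0.28 (Notch2) and 0.076 (Hey1), and coacervate over osteoarthritic -0.29 (Notch1), -0.19 (Notch2), -0.22 (Notch3), -0.21 (Jag1) and -0.0080 (Dll4).
On the log2(FPKM + 1) and log2(FPKM + 0.1) scales, which moved the median of all genes to -0.11 and -0.13 in osteoarthritic over healthy and to 0.12 and 0.15 in HA over osteoarthritic, Jag1 became -0.088 and -0.13 in the first. In the second Notch3 became 0.28 and 0.38, Jag1 0.11 and 0.16, Jag2 0.0078 and 0.019, Dll4 0.042 and 0.091, Hey1 0.051 and 0.071, and Hey2 0.041 and 0.098.
Leaving out single libraries gave, in osteoarthritic over healthy, -0.40 to 0.048 for Notch2, -0.71 to 0.093 for Notch3, -0.13 to 0.19 for Jag1 and -0.024 to 0.38 for Hey1. In HA over osteoarthritic it gave -0.054 to 0.34 (Notch1), -0.29 to 0.51 (Notch3), -0.17 to 0.14 (Jag1), -0.27 to 0.035 (Jag2), -0.19 to 0.0035 (Dll4), -0.16 to 0.073 (Hey1) and -0.26 to 0.085 (Hey2). In coacervate over osteoarthritic it gave -0.051 to 0.30 (Notch1) and -0.086 to 0.23 (Jag1), and in coacervate over HA -0.16 to 0.17 (Notch1), -0.0097 to 0.20 (Notch2) and -0.010 to 0.18 (Jag1). In HA over healthy it gave -0.058 to 0.15 (Notch2), -0.058 to 0.075 (Jag1), -0.027 to 0.17 (Dll4) and -0.097 to 0.30 (Hey1), and in coacervate over healthy -0.091 to 0.37 (Notch3) and -0.10 to 0.20 (Jag2).
The replicate numbers did not pair the libraries: 4 of 24 same-numbered pairs had a correlation over 0.1 and 1 of 16 libraries correlated best with its own number. With the replicate block, Notch3 in HA over osteoarthritic was 0.044, and the calls over all genes were 26 in osteoarthritic over healthy, 0 in coacervate over osteoarthritic and 0 in HA over healthy.
Of the 9 genes, the number called in osteoarthritic over healthy was 1 with DESeq2 and with both limma fits (0 to 1 with single libraries out), and in HA over healthy 0 without the filter and with the block (0 to 1). Of the other pathway genes, osteoarthritic over healthy had 3 with DESeq2 and 0 with both limma fits, the fit of 2 groups and the block (0 to 5), coacervate over osteoarthritic 3 with DESeq2 (0 to 7), HA over healthy 1 with DESeq2, 2 with 2 groups and 1 without osteoarthritic replicates 2 and 3 (0 to 1), and coacervate over healthy 1 with DESeq2.
Over all genes, calls in osteoarthritic over healthy numbered 418 (DESeq2), 45 (no filter), 21 and 28 (limma), 8 (2 groups) and 164 (without osteoarthritic replicates 2 and 3), and 15 to 1122 with single libraries out. HA over osteoarthritic had 8 (DESeq2) and 1 and 1 (limma), and 0 to 1 with single libraries out. Coacervate over osteoarthritic had 797 (DESeq2), 0 (no filter, filterByExpr, both limma fits and 2 groups) and 3 (without osteoarthritic replicates 2 and 3), and 0 to 2054. Coacervate over HA had 325 (DESeq2) and 149 (without those replicates), and 0 to 11. HA over healthy had 159 (DESeq2), 7 (no filter), 14 and 15 (limma), 390 (2 groups) and 94 (without those replicates), and 0 to 37. Coacervate over healthy had 18 (DESeq2), and 0 to 1.
The cause of these shifts was not tested. Depth limits Hey1 and Hey2 most, at 59 to 233 counts per library.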
